A study of Mus musculus with 80 samples.

Results

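The neocortex of C57BL/6 females (C57BL/6J by the study's methods) was compared between 8 virgin animals and 8 primiparous animals, which had borne and weaned 1 litter. The 16 libraries are the cortex libraries chosen by their region and state labels, out of 77 libraries analysed here. Each cortex library came from 1 animal, and the same animals also gave hypothalamus (16 libraries) and hippocampus, amygdala and cerebellum (15 each). All females had birth dates within 3 days of one date and lived in 1 barrier room, and the labels give no transgene or drug for either group. Primiparous females were paired with a male at 8 weeks of age for 2 weeks. The labels place the harvest 3 weeks after weaning and the study's methods give a longer interval, with age-matched virgins taken on the same day. Virgins never met a male and were housed as a group of females, so mating, pregnancy, lactation, pup care and housing cannot be told apart. By the study's methods the left cortex was used.

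The neocortex is a layered sheet of excitatory projection neurons and inhibitory interneurons, with astrocytes, oligodendrocytes, microglia and vessels among them. Pregnancy and lactation expose the brain to high levels of steroid hormones, prolactin and oxytocin, and the comparison asks whether expression differences remain in the cortex after the pups are gone. A bulk library sums all cell types, so fewer cells of a type and less RNA per cell cannot be told apart. It also carries whatever neighbouring tissue was dissected with it, and the olfactory bulb and the striatum border the cortex.

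The libraries held 8678050 to 31391961 counted reads in virgins and 12265440 to 30341040 in primiparous females. The cortex label was checked on 22 genes of cortical layers and excitatory neurons, of which 9 had their highest mean among the 5 regions in cortex and 7 in hippocampus. Lamp5, an upper-layer marker, averaged 262 CPM (counts scaled to the total counted reads of the library) in cortex and at most 64.9 CPM elsewhere. The hypothalamic peptides Oxt, Avp, Hcrt and Pmch averaged 0.116 to 0.747 CPM in cortex. Of 10 olfactory bulb genes, however, 7 also had their highest regional mean in the cortex libraries.

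No gene passed the test between virgin and primiparous cortex. With edgeR's quasi-likelihood test, 0 of 13016 genes (0%) had an adjusted p below 0.05, and the smallest adjusted p was 0.479. At an unadjusted p under 0.05 there were 1276 genes (9.8%), of which 742 were higher in primiparous females (5.7%) and 534 lower (4.1%). limma-voom, the test of the study, called 0 genes and placed 1270 at an unadjusted p under 0.05, and DESeq2 called 0 and placed 1420 there. The split by direction differed between settings. The genes at that p were 810 higher and 508 lower with DESeq2's size factors in edgeR, and 672 and 637 with upper quartile scaling. They were 350 and 1218 in limma-trend on log2(CPM + 4), which differs in test, transformation and scaling and called 0 genes. The median size of the log2 fold change was 0.10, and 32 genes had one beyond 1 in either direction.

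The 12 genes with the smallest p among those higher in primiparous females were Sdf2l1, Olig2, Rtn4rl2, Lingo1, Hic1, Sod3, Igsf21, Ddx54, Gpr27, Myh7b, Vgf and Btbd17, each with an adjusted p of 0.479 in edgeR. Sdf2l1 (chr16:17130138-17132383, GRCm38), a co-chaperone of the endoplasmic reticulum, had the smallest p of all genes. Its lowest, median and highest values were 11.2, 12.2 and 15.7 CPM in virgins and 13.3, 16.7 and 22.4 CPM in primiparous females. The ranges overlapped through virgin 4489 alone, the highest virgin library. Its log2 fold change was 0.48 ± 0.10 (SE).

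Olig2, the lineage factor of oligodendrocytes, stood at 27.2, 29.6 and 34.4 CPM in virgins and 31.1, 36.4 and 38.3 CPM in primiparous females, a log2 fold change of 0.28 ± 0.07 (SE). Lingo1 and Rtn4rl2, both of the Nogo receptor system that restrains axon growth, had log2 fold changes of 0.30 ± 0.07 and 0.42 ± 0.10 (SE). Vgf, a secreted neuropeptide precursor induced by neurotrophins, averaged 293 ± 32.7 CPM in virgins and 354 ± 32.0 CPM in primiparous females (SD, n = 8 each). For Vgf, only primiparous 413 lay within the virgin range. Hic1, a transcriptional repressor, averaged 2.43 ± 0.863 CPM in virgins and 4.07 ± 0.523 CPM in primiparous females (SD, n = 8 each), and Sod3, the extracellular superoxide dismutase, averaged 13.3 ± 0.991 CPM in virgins and 16.2 ± 1.76 CPM in primiparous females (SD, n = 8 each).

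The 12 genes with the smallest p among those lower in primiparous females were Smco3, Scn3a, Tiparp, Etnppl, B130055M24Rik, Lix1, Yes1, Zfp974, A330076H08Rik, Rc3h1, Rnf2 and Zfp597, again with an adjusted p of 0.479 each in edgeR. Scn3a, a voltage-gated sodium channel most abundant in development, stood at 31.9, 41.8 and 52.2 CPM in virgins and 25.9, 32.0 and 37.0 CPM in primiparous females (lowest, median, highest). Its log2 fold change was -0.39 ± 0.09 (SE), and virgin 405 alone lay within the primiparous range. Tiparp, a mono-ADP-ribosyltransferase induced by the aryl hydrocarbon receptor, stood at 13.9, 17.2 and 19.3 CPM in virgins and 8.72, 12.4 and 14.6 CPM in primiparous females, a log2 fold change of -0.42 ± 0.10 (SE). Etnppl, an astrocyte enzyme of phosphoethanolamine breakdown, averaged 41.8 ± 5.91 CPM in virgins and 30.9 ± 4.73 CPM in primiparous females (SD, n = 8 each), with 3 primiparous libraries inside the virgin range.

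The CPM ranges of virgin and primiparous females did not overlap for 2 of 13016 genes (0.0154%), Smco3 and Slc17a5, both lower in primiparous females. Neither passed the adjusted test, and the separation is given as a description. Smco3 spanned 5.92 to 8.59 CPM in virgins and 4.42 to 5.87 CPM in primiparous females, a log2 fold change of -0.41 ± 0.09 (SE). Slc17a5, the lysosomal exporter of sialic acid, was named for this separation after its values were seen. It spanned 20.3 to 24.3 CPM in virgins and 17.9 to 20.3 CPM in primiparous females, so that the groups all but touched. Its log2 fold change was -0.14 ± 0.06 (SE), with an adjusted p of 0.488 in edgeR.

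The 29 gene lists were ranked by the share of members on one side at an unadjusted p under 0.05. In the edgeR fit of all 16 libraries, endoplasmic reticulum chaperones and their regulators ranked first, which did not hold in every other fit. These genes fold secreted and membrane proteins and are induced together when unfolded proteins accumulate. Of 18 measured members, 0 passed the adjusted test, 8 were higher in primiparous females at an unadjusted p under 0.05 (5.7% of all genes were) and 0 were lower. The median log2 fold change was 0.13, beside 0.00 over all genes tested, and 15 of 18 lay above 0. Sdf2l1, which had the smallest p of all genes, is 1 of the 8. The lists were written with earlier results of these data known, so the rank is given as a description. The members were measured in the same libraries and are not independent of one another.

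Hspa5 (BiP), the main chaperone of the compartment, stood at 262, 286 and 388 CPM in virgins and 300.0, 345 and 357 CPM in primiparous females (lowest, median, highest), a log2 fold change of 0.21 ± 0.08 (SE). The highest of all Hspa5 values belonged to virgin 4489, the library that was also highest among virgins for Sdf2l1. Calr, a chaperone of glycoproteins that also buffers calcium, spanned 222 to 283 CPM in virgins and 256 to 297 CPM in primiparous females, a log2 fold change of 0.17 ± 0.06 (SE). The disulphide isomerases Pdia6 and Pdia4 had log2 fold changes of 0.21 ± 0.08 and 0.21 ± 0.08 (SE). The stress-induced transcription factor Ddit3 (CHOP) had one of 0.30 ± 0.10, Creld2 of 0.27 ± 0.11 and the co-chaperone Dnajb11 of 0.13 ± 0.06 (SE). Among members at a larger p, Hsp90b1 (GRP94) stood at 0.01 ± 0.07 and Dnajb9 at -0.19 ± 0.10 (SE).

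With each library's trend on transcript length and GC content removed, 9 of 18 chaperone genes were higher at an unadjusted p under 0.05 and 0 lower, beside 2.5% of all genes higher in that fit. They were not all the same genes. Creld2 (0.13 ± 0.09) was no longer among them, while Hsp90b1 (0.12 ± 0.05) and Hyou1 (0.11 ± 0.05, log2 fold change ± SE) were. Without primiparous 427, the library that stood apart most (below), 7 of 18 were higher (6.9% of all genes were), with a median of 0.08. With a covariate for 3-digit or 4-digit animal numbers, 5 of 18 were (3.33% of all genes). The list level, the mean log2(CPM + 4) of its members, ran from 6.44 to 6.66 in virgins and from 6.44 to 6.76 in primiparous females, so the states overlapped in it. Primiparous 427 had the highest level and primiparous 4493 the lowest.

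**Figure D1:**
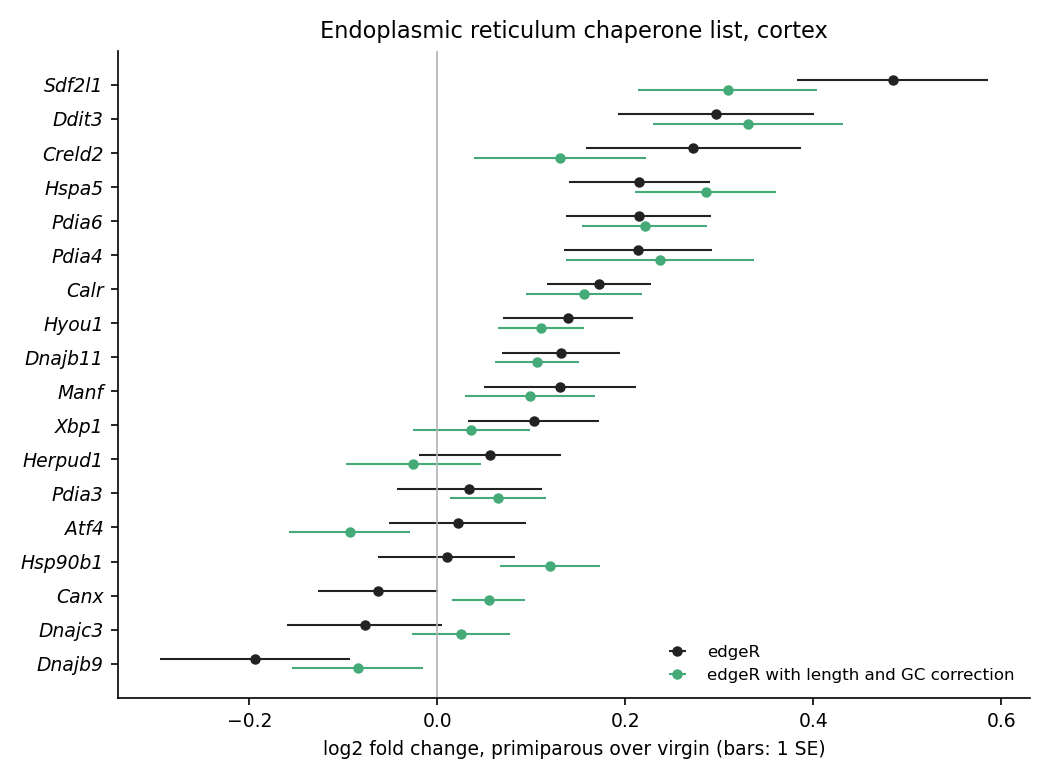
Log2 fold change of each gene of the endoplasmic reticulum chaperone list, primiparous over virgin cortex (n = 8 each), with bars of 1 SE, in the edgeR fit and in the fit with each library's length and GC trends removed. Sdf2l1 (0.48 and 0.31) and Hspa5 (0.21 and 0.29) lay above 0 in both.

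The promoters of Sdf2l1 and Hspa5 are shown because both genes belong to this list. The windows run from 250 bases before to 50 bases after the start site, 5′ to 3′ on the gene's strand, from RefSeq on GRCm38.p6, with Sdf2l1 at chr16:17132334-17132633 (minus strand) and Hspa5 at chr2:34771840-34772139 (plus strand). Capitals mark matches of the endoplasmic reticulum stress element, which is CCAAT and CCACG with 9 bases between them, on either strand.
Sdf2l1: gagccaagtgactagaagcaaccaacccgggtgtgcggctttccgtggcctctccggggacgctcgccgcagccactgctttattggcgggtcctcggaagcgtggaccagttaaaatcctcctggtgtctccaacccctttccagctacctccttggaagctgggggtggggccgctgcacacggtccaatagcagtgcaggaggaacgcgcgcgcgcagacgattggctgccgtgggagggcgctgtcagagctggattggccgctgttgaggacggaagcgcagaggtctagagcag
Hspa5: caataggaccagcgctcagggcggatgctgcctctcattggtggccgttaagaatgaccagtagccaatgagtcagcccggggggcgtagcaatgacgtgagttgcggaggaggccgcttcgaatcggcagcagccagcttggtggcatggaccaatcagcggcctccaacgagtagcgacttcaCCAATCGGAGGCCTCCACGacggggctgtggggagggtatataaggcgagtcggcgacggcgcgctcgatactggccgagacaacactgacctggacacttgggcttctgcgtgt
Hspa5 held a match that starts at base 186 of the window, and 0.119% of 32851 promoter windows held one. Sdf2l1 held none, which says only that these letters are not in this window.

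In the other lists 0 members passed the adjusted test. Their counts at an unadjusted p under 0.05, here and in the next paragraphs, stand beside 5.7% of all genes higher and 4.1% lower. Of 11 meningeal fibroblast genes, 4 were higher in primiparous females at an unadjusted p under 0.05 and 0 lower. These were the collagens Col1a2 (0.34 ± 0.11), Col1a1 (0.48 ± 0.17) and Col3a1 (0.50 ± 0.21) and the growth factor binding protein Igfbp2 (0.35 ± 0.13, log2 fold change ± SE). The level of this list ran from 3.87 to 4.43 in virgins and from 4.08 to 4.46 in primiparous females. Of 7 mural cell genes, 2 were higher, the contractile genes Myl9 (0.46 ± 0.15) and Tagln (0.52 ± 0.19), while the pericyte gene Rgs5 stood at -0.31 ± 0.29. Of 12 endothelial genes 0 were higher and 0 lower. The endothelial level had its lowest value in primiparous 4493 (3.85) and its highest in primiparous 415 (5.12), and so did the mural level. Of 9 choroid plexus genes, 3 were lower at that p (Otx2, Slc4a5 and Clic6), of which Otx2 and Slc4a5 averaged below 1 CPM in both states. Without primiparous 427, 1 of 9 was lower (5.91% of all genes were). With the animal number series as a covariate, 2 of 11 meningeal and 0 of 7 mural genes were higher (3.33% of all genes were).

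Receptors of the fast transmitters lay mostly on the lower side. Of 18 glutamate and GABA receptor subunits, 16 had a log2 fold change below 0, 4 were lower in primiparous females at an unadjusted p under 0.05 (4.1% of all genes were) and 0 higher, with a median of -0.19. Gria2, the subunit that keeps AMPA receptors impermeable to calcium, stood at 751, 806 and 959 CPM in virgins and 573, 664 and 827 CPM in primiparous females (lowest, median, highest), a log2 fold change of -0.24 ± 0.08 (SE). The others were Gabra5 (-0.25 ± 0.10), Gabra2 (-0.23 ± 0.10) and Gria3 (-0.20 ± 0.09). With length and GC trends removed, 1 of 18 was lower at that p (2.47% of all genes were) and the median was -0.04. Without the 3 libraries lowest in olfactory bulb genes, 11 of 18 were lower and 1 higher, beside 10.7% and 11.9% of all genes. Without the 3 highest in an unnamed row of the count table (below), 0 were lower, beside 0.707% of all genes. Without primiparous 427, 2 were lower and 1 higher, beside 5.91% and 6.9% of all genes.

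Of 15 hormone receptor genes, 12 lay below 0 and 2 were lower at an unadjusted p under 0.05, the serotonin receptor Htr2c (-0.39 ± 0.14) and the growth hormone receptor Ghr (-0.24 ± 0.11, log2 fold change ± SE). Without primiparous 427 1 was lower, and without the 3 libraries lowest in olfactory bulb genes 6 were (5.91% and 10.7% of all genes). Oxtr, the oxytocin receptor, spanned 5.99 to 10.5 CPM in virgins and 6.28 to 8.98 CPM in primiparous females. Prlr, the prolactin receptor, averaged 1.62 CPM in virgins and 1.22 CPM in primiparous females, and the oestrogen receptor gene Esr1 averaged 1.22 CPM in virgins and 1.18 CPM in primiparous females. Pgr, the progesterone receptor, averaged 41.1 ± 3.15 CPM in virgins and 33.8 ± 8.20 CPM in primiparous females (SD, n = 8 each), a log2 fold change of -0.24 ± 0.12 (SE) that did not pass the test. The receptor values of the states overlapped for each of these genes.

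Of 18 circadian clock genes, 3 were lower at an unadjusted p under 0.05 (Ciart, Nr1d2 and Hlf) and 1 higher (Nfil3), with a median log2 fold change of -0.04. Without primiparous 427, 2 were lower and 2 higher (5.91% and 6.9% of all genes), with a median of 0.01. Without the 3 libraries highest in the unnamed row, 1 was lower (0.707% of all genes). The core clock genes Arntl and Per2 stood at 0.09 ± 0.07 and -0.09 ± 0.17 (log2 fold change ± SE). Of 16 immediate early genes, which are transcribed within minutes of neuronal firing, 14 lay above 0 and 2 were higher at that p, Egr4 (0.31 ± 0.10) and Ier2 (0.33 ± 0.13), with Fos at 0.16 ± 0.16. Of 14 myelin genes, 2 were higher, Mag (0.21 ± 0.07) and Gjb1 (0.23 ± 0.10), and the myelin protein Mbp stood at 0.08 ± 0.08. Without primiparous 427, 5 of 16 immediate early genes were higher (6.9% of all genes were), and with length and GC trends removed 0 of 16 and 0 of 14 myelin genes were (2.5%). Among 12 astrocyte genes, the glutamate transporter Slc1a3 was lower (-0.20 ± 0.07).

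Of 77 cytosolic ribosomal protein genes, 72 lay above 0 with a median log2 fold change of 0.13, and 6 were higher at an unadjusted p under 0.05. Over all genes 49.3% lay above 0 and 5.7% were higher at that p. Of 86 oxidative phosphorylation genes, 68 lay above 0 with a median of 0.10, and 6 were higher. Both rested on 1 library: without primiparous 427 the medians were 0.00 and -0.02.

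Cortex libraries of the same state differed among themselves. The biological coefficient of variation, the relative spread between animals beyond counting noise, was 16.3% in cortex, 15.7% in amygdala, 12.1% in hypothalamus, 12.01% in cerebellum and 11.3% in hippocampus. It was 12.8% among virgin and 19.1% among primiparous cortex libraries, and it was higher in primiparous females in each of the other 4 regions too, for example 15.1% against 8.86% in hypothalamus. Without primiparous 427 the coefficient in cortex was 13.7%, below that of amygdala. With state means removed, the first principal component took 44.7% of the variance of log2(CPM + 4) in cortex, against 18.8% to 29.0% in the other regions, and the next 2 took 19.97% and 10.7%.

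The first component followed transcript length. The length slope of a library is its log2 deviation from the mean library per 10-fold longer transcript, and its GC slope is the deviation per 10 percentage points of GC, both fitted together. Transcript length here is that of all exons of a gene merged, and GC content is that of its longest transcript. Primiparous 427 had a length slope of -1.06, and the other 15 libraries lay between -0.27 and 0.29. Its score on the component was 40.8, beside 19.8 in virgin 4486, the next. Short transcripts of translation and respiration were high in this animal: the ribosomal protein level was 7.75 in it and 6.77 to 7.32 in the others, and the oxidative phosphorylation level was 7.004 in it and 6.15 to 6.55 in the others.

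Within states, 6149 of 13016 genes moved with the length slope in edgeR (47.2%), 2924 higher and 3225 lower as it increased (22.5% and 24.8%). Peg3, a long imprinted zinc-finger gene, had the smallest p of the former (0.57 log2 per SD of the slope, adjusted p = 2.08e-09). Uqcrh, a subunit of respiratory complex III, had that of the latter (-0.27 log2 per SD, adjusted p = 1.89e-08), followed by Atp5h and Rps27a. Without primiparous 427, 1906 genes passed. The slope was computed from the same genes, so these counts describe how widely it was shared.

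The second component followed GC content. Primiparous 418, 4493 and 421 had GC slopes of 0.29, 0.25 and 0.23, and primiparous 413 had the lowest, -0.19. The GC slope averaged -0.08 ± 0.08 in virgins and 0.08 ± 0.17 in primiparous females (SD, n = 8 each; exact two-sided permutation p = 0.0427 over 12870 splits, 0.171 adjusted over 4 measures). Counted reads, the length slope and the score on the first component before centring had adjusted exact permutation p-values of 0.611, 0.785 and 0.588. In edgeR, 3320 genes moved with the GC slope (25.5%), and 2074 to 5180 did with 1 library left out. This slope too was computed from the same genes. Gabrb2, a subunit of the main GABA-A receptor, had the smallest p among those lower at a high GC slope (-0.33 log2 per SD), and Adgrb1, an adhesion receptor of synapses, among those higher (0.24).

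**Figure D2:**
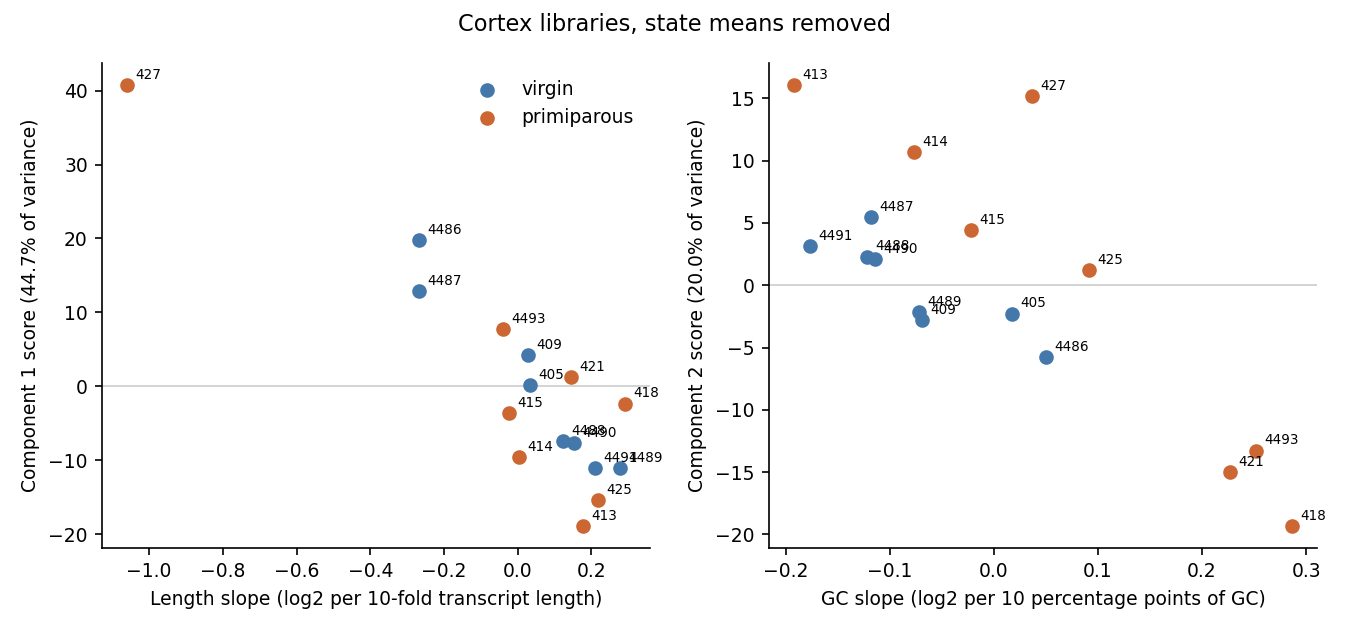
Scores of the 16 cortex libraries, numbered by animal, on the first and second components of log2(CPM + 4) with state means removed, against each library's length slope and GC slope. Primiparous 427 stood alone at a length slope of -1.06, and primiparous 418, 421 and 4493 had the highest GC slopes.

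Length and GC slopes together took 63.1% of the within-state variance, where 14.3% falls to 2 measures unrelated to expression. With the olfactory bulb level and the level of the unnamed row (both below) added, the share was 77.5% for 4 measures, beside 28.6% for unrelated ones. The number of genes at an unadjusted p under 0.05 between states also differed between fits that remove these trends or leave out libraries. With length and GC trends removed there were 648 (4.98%), without the 3 libraries highest in the unnamed row there were 339 (2.60%), and without the 3 lowest in olfactory bulb genes there were 2941 (22.6%). Leaving out primiparous 413 alone gave 2772 and leaving out primiparous 4493 alone gave 798. In each of these fits 0 genes passed the adjusted test in edgeR.

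**Figure D3:**
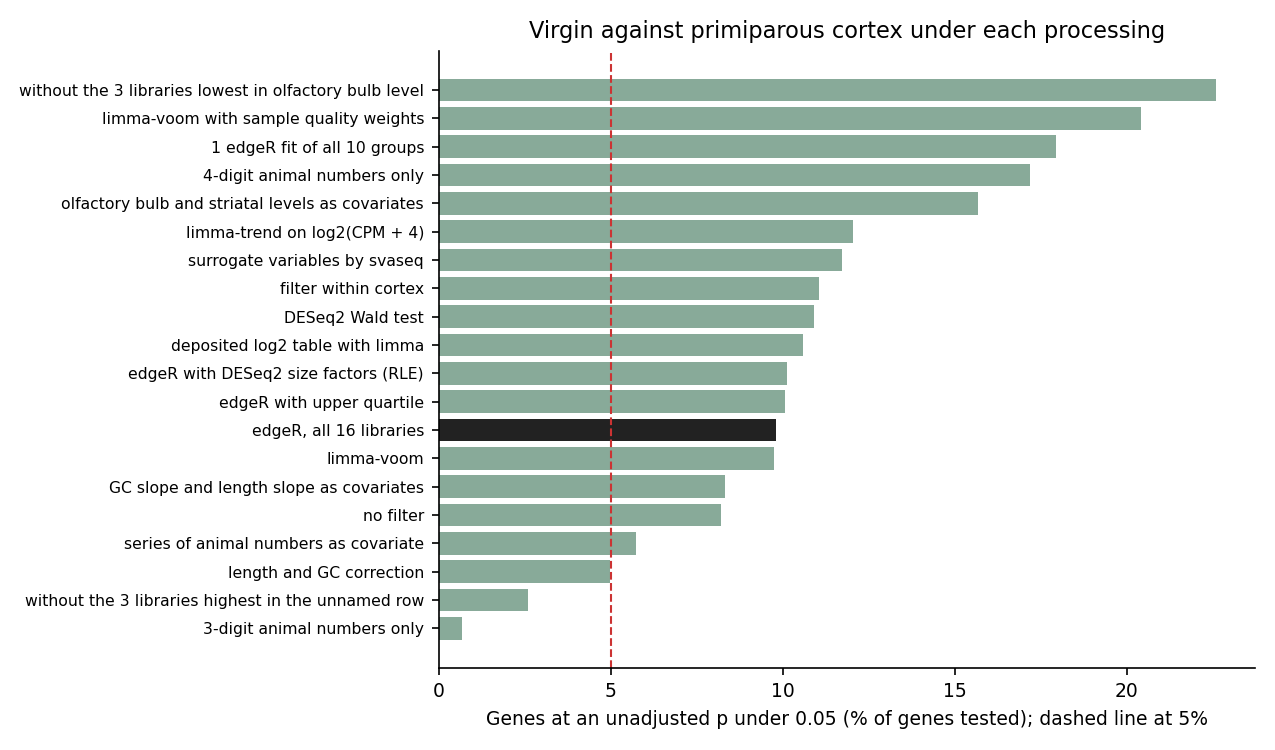
Share of tested genes at an unadjusted p under 0.05 between virgin and primiparous cortex, in percent, for the edgeR fit of all 16 libraries and for each other processing, with a dashed line at 5%. The fit of all libraries gave 9.8%, and the others ranged from 0.684% to 22.6%.

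Genes of the olfactory bulb had the widest spread within states. Of the 20 genes with the largest within-state SD of log2(CPM + 4), 7 were on the olfactory bulb list: Cdhr1, Omp, Doc2g, S100a5, Th, Eomes and Trh. Cdhr1, a cadherin of mitral and tufted cells, ranked first with an SD of 1.49, against a median of 0.17 over all genes. It was at 1.22 CPM in primiparous 413, 3.46 CPM in primiparous 425 and 11.98 CPM in virgin 405, and at 46.0 to 138 CPM in the other 13. Its highest value in another region was 29.1 CPM, in amygdala. Omp, the marker of olfactory sensory neurons, whose axons end in the bulb, was at 0.486, 0.587 and 0.691 CPM in the same 3 libraries, and at 1.37 to 71.6 CPM in the others.

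The olfactory bulb level, the mean log2(CPM + 4) of 10 genes, was 2.74 in primiparous 413, 2.85 in primiparous 425 and 3.28 in virgin 405. It was 4.13 to 5.72 in the other 13 cortex libraries and 2.68 to 3.72 in the libraries of the other 4 regions. The low libraries thus occurred in both states, and the mean level was 4.79 ± 0.76 in virgins and 4.71 ± 1.24 in primiparous females (SD, n = 8 each). The median log2 fold change of the 10 genes was 0.16 in edgeR, with 6 above 0, and -0.43 in limma-voom, with 1 above 0. Without the 3 low libraries it was 0.44 in edgeR, with 10 above 0 and 1 higher at an unadjusted p under 0.05 (11.9% of all genes were). Without primiparous 427 it was -0.05, so its direction depended on the test and on that library. Over the 10 genes, the adjusted edgeR p between states ran from 0.718 to 0.990. Virgin 405 was also the shallowest library, at 8678050 counted reads.

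With the list's own genes left out, 317 of 13006 genes moved with the olfactory bulb level in edgeR (2.44%), 241 of them higher with it (1.85%) and 76 lower (0.584%). The smallest p belonged to Calb2, a calcium-binding protein of bulb and cortical interneurons, which rose by 1.15 log2 per SD of the level (adjusted p = 5.22e-09). Cacng5, Nmb, Shisa3 and Aqp1 followed, at 0.88, 1.00, 1.42 and 1.65 log2 per SD. Dlx1, a factor of interneuron precursors such as those that migrate to the bulb, rose by 0.60 log2 per SD (adjusted p = 1.43e-07). Among the genes lower with it, slopes were smaller, at -0.22 for Gng12, -0.22 for Rapgef4 and -0.13 for Prkcb, the beta protein kinase C. The count rested on the 3 low libraries: without them 17 genes passed, and with length and GC trends removed 821 did.

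**Figure D4:**
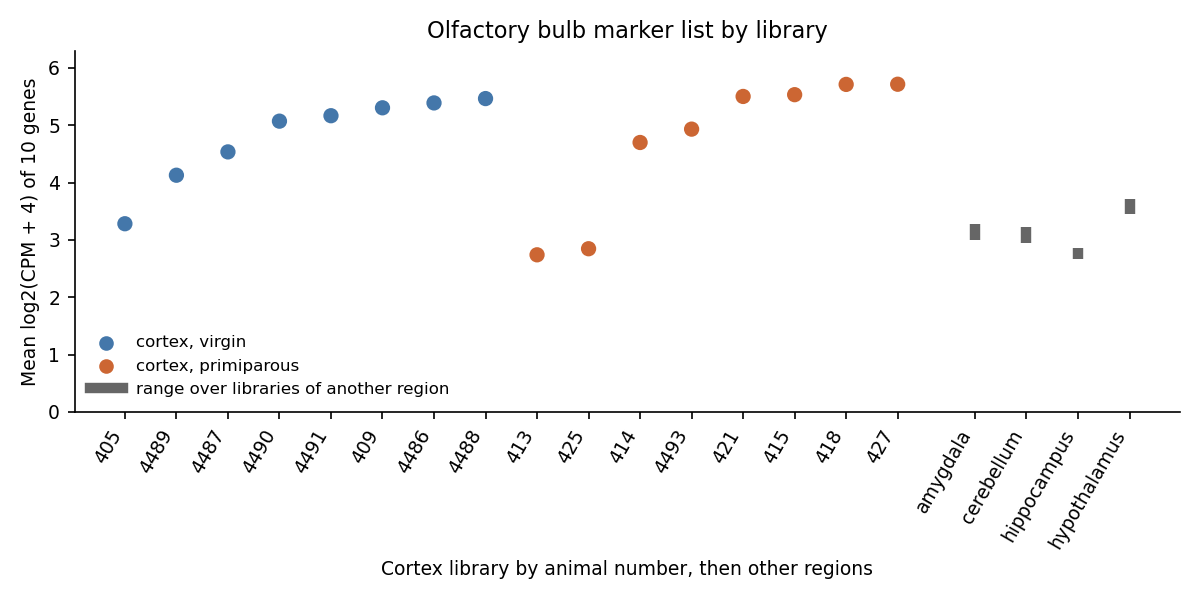
Mean log2(CPM + 4) of 10 olfactory bulb genes in each virgin and primiparous cortex library, beside the range over the libraries of each other region. Virgin 405 and primiparous 413 and 425 fell between 2.74 and 3.28, near the other regions, and the other 13 lay at 4.13 or above.

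The promoter of Th, the rate-limiting enzyme of dopamine synthesis, is shown because Th marks periglomerular dopamine neurons of the bulb, where its expression depends on activity. Th spanned 4.15 to 44.1 CPM in virgins and 1.76 to 59.2 CPM in primiparous females, and its 3 lowest values were those of the same 3 libraries. The window at chr7:142899946-142900245 (minus strand), from RefSeq on GRCm38.p6 and 5′ to 3′ on the gene's strand, carries in capitals the cyclic AMP response element TGACGTCA, which reads the same on both strands.
Th: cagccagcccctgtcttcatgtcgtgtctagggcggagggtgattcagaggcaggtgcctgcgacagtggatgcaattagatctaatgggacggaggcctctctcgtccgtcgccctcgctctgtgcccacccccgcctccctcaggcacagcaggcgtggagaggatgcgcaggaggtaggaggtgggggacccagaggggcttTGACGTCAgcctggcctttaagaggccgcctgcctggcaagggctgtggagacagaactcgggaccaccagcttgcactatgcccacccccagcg
The match starts at base 206, and 1.79% of 32851 windows held one.

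Genes of the striatum varied less. The level of 15 genes of striatal medium spiny neurons ranged from 4.47 in virgin 4487 to 4.99 in virgin 405, with a within-state SD of 0.16 against 1.03 for the olfactory bulb level. With these genes left out, 1 of 13001 genes moved with it in edgeR (0.00769%), Lrrc10b (0.50 log2 per SD, adjusted p = 9.07e-04). With the myelin level, the immediate early level and counted reads, 0 genes moved in edgeR or limma-voom.

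Another set of rows was high in 3 primiparous libraries. A gene identifier for which no symbol was found, called the unnamed row here, took 6.43% of counted reads in primiparous 421, 4.92% in primiparous 4493 and 2.50% in primiparous 425, and 0.275% to 0.578% in the other 13. Reads assigned to Lars2, the gene of the mitochondrial leucyl-tRNA synthetase, were at 6198, 5044 and 3044 CPM in these and at 261 to 530.1 CPM in the others. They rose and fell with the unnamed row, and whether they come from Lars2 mRNA was not tested. Rn7sk, a small nuclear RNA that holds back the elongation factor P-TEFb, was at 128, 68.5 and 19.4 CPM in these and at 2.74 to 7.05 CPM in the others.

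In edgeR 5 genes or rows moved with it (0.0384%), Lars2, Rn7sk and 3 further rows without a symbol. Without primiparous 418 the count was 596, and without any other library it stayed at 5. Between states, Lars2 had a log2 fold change of 2.63 ± 0.69 (SE) and an adjusted p of 0.479 in edgeR. When all 10 groups of the study shared 1 edgeR fit, the unnamed row and these 5 were the 6 that passed, with adjusted p-values of 0.00291 to 0.0254 (0.0461% of genes). That fit took its dispersion from all 77 libraries, while the high values lay in 3 of 8 primiparous cortex libraries. The 6 thus describe these 3 libraries. Over 35 alternatives the log2 fold change went as low as 0.27 for Lars2 and 0.107 for the unnamed row. In the other regions of animals 421, 425 and 4493, Lars2 lay between 114 and 415 CPM. High Lars2 also occurred in other regions of other animals, at 1203 and 888 CPM in the hypothalamus and cerebellum of virgin 4487, 1019 CPM in the hypothalamus of primiparous 414 and 939 CPM in that of virgin 4488. The other 57 libraries of these regions lay between 112 and 618 CPM.

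Other spread recurred in the animal. Prl, the pituitary hormone prolactin, stood at 75.5 CPM in the cortex of primiparous 427, 26.7 CPM in virgin 4490, 15.6 CPM in primiparous 414 and 6.52 CPM in primiparous 413, and at or below 1.06 CPM in the other 12. In primiparous 427 it was also at 97.3 CPM in hypothalamus, 48.0 CPM in hippocampus, 125 CPM in amygdala and 90.1 CPM in cerebellum. In virgin 4490 it reached 119.8 CPM in hypothalamus and 9.41 CPM in amygdala. Not every region of an animal went together. Primiparous 413 had 24.7 CPM in cerebellum and 0.659 CPM in hypothalamus. Primiparous 421 had 14.95 CPM in hypothalamus and 0.568 CPM in cortex. Gh, growth hormone of the same gland, was at 38.8 CPM in the cortex of primiparous 427 and 9.10 CPM in that of virgin 4490. The level of Prl, Gh and Pomc moved with 1308 of 13013 other genes within states in edgeR (10.1%), 886 higher with it (6.81%) and 422 lower (3.24%). Primiparous 427, highest in this level, also had the lowest length slope. Without it 0 genes passed and 901 stood at an unadjusted p under 0.05, so the count rested on this library. The adjusted edgeR p between states was 0.584 for Prl and 0.5264 for Gh.

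The Prl promoter is shown because Prl is the hormone gene with the largest within-state SD of log2(CPM + 4) in these libraries. At chr13:27057320-27057619 (plus strand), from RefSeq on GRCm38.p6 and 5′ to 3′, capitals mark TATNCAT on either strand, a core known to be bound by the pituitary factor Pit-1.
Prl: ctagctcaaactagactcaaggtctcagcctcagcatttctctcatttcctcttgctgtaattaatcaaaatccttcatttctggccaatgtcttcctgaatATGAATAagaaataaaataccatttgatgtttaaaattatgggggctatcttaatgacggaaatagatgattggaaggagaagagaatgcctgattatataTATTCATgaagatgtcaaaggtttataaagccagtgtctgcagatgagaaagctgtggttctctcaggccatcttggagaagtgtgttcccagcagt
The window held 2 matches, and 8.84% of 32851 windows held at least 1.

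The cortex levels of Sgk1, Fkbp5 and Fos also followed those in the other regions of the animal. For 7 genes the level in cortex was set against the mean of the other regions of the same animal, with the mean of each state and region removed and animals permuted within state. Sgk1, a kinase induced by glucocorticoids, gave Pearson's r = 0.952 and Spearman's rho = 0.988 over 16 animals (permutation p = 1e-05 for each, the smallest that 100000 permutations give, and 3.5e-05 adjusted). Without the 2 animals farthest from the median, r was 0.929. It was 0.956 within virgins, 0.950 within primiparous females, 0.967 among the 9 animals with 3-digit numbers and 0.929 among the 7 with 4-digit numbers.

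Fkbp5, a co-chaperone that the glucocorticoid receptor induces, gave r = 0.950 and rho = 0.950 (adjusted permutation p = 3.5e-05 each), and r = 0.938 without the 2 farthest animals. Its r was 0.960 within virgins and 0.945 within primiparous females, and 0.945 and 0.959 among 3-digit and 4-digit numbers. Fos, the activity-induced transcription factor, gave r = 0.730 and rho = 0.759 (adjusted permutation p = 0.00427 and 0.00343), and r = 0.685 without the 2 farthest. Its r was 0.730 and 0.780 within the states and 0.794 and 0.758 within the number series. Drd2 and Ttr gave r of 0.425 and 0.152 and rho of 0.474 and 0.165, with adjusted permutation p-values for r of 0.139 and 0.686. For Cdhr1 the 3 low libraries formed a cluster of their own, and no pooled r is given.

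Sgk1 had the smallest p of 13 glucocorticoid-responsive genes between states. It stood at 83.6, 132 and 166 CPM in virgins and 66.6, 83.9 and 132 CPM in primiparous females in cortex (lowest, median, highest), a log2 fold change of -0.45 ± 0.15 (SE), with an adjusted p of 0.479 in edgeR. The ranges overlapped, with primiparous 427 and 415 the highest primiparous and virgin 4489 and 4491 the lowest virgin animals. Fkbp5 averaged 56.1 CPM in virgins and 59.4 CPM in primiparous females, a log2 fold change of 0.12 ± 0.17 (SE). Of the 13 genes, 2 were lower at an unadjusted p under 0.05, Sgk1 and Pdk4, and 0 higher (4.1% and 5.7% of all genes were). Without primiparous 427, 4 of 13 were lower and 0 higher (5.91% and 6.9% of all genes). Without the 3 libraries lowest in olfactory bulb genes, 2 were lower and 1 higher (10.7% and 11.9% of all genes).

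**Figure D5:**
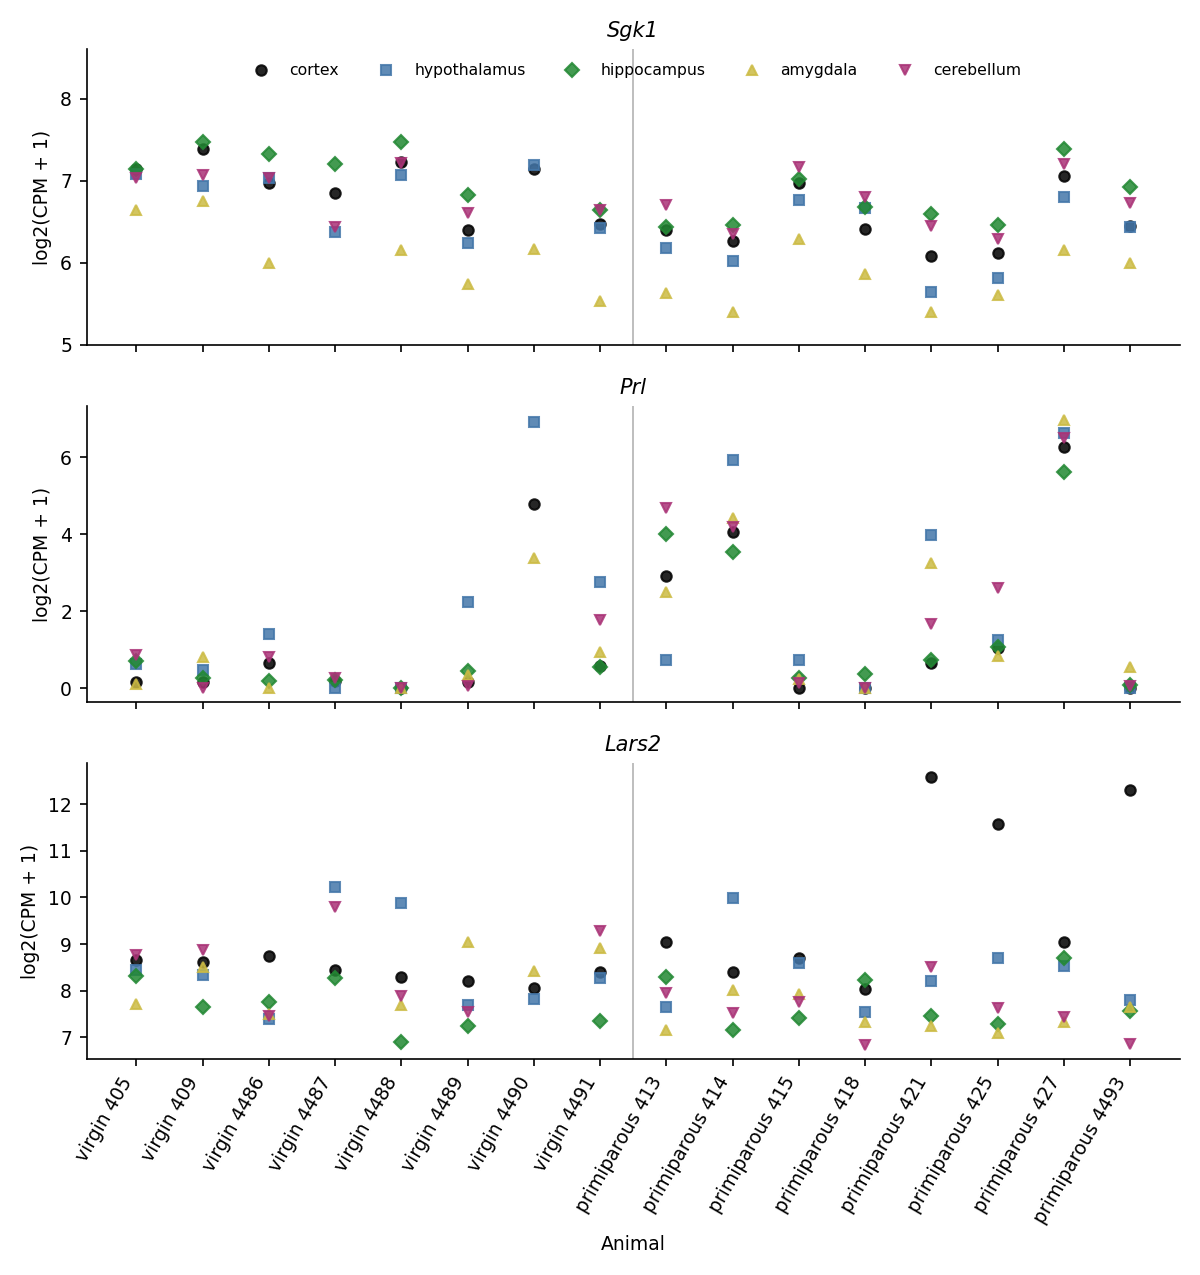
Log2(CPM + 1) of Sgk1, Prl and Lars2 in each of the 5 regions of each animal, with virgin and primiparous animals separated by a line. The regions of an animal lay together for Sgk1 and for the high Prl of primiparous 427, while Lars2 was high in the cortex but not the other regions of primiparous 421, 425 and 4493, and stood apart to a lesser extent in the hypothalamus of virgin 4487, virgin 4488 and primiparous 414.

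Whether the state difference in cortex departs from that of another region was tested as an interaction in edgeR. Against hypothalamus and hippocampus 0 of 13016 genes passed (0% each), with 336 and 1690 at an unadjusted p under 0.05, and limma-voom with the animal as a replicate block also called 0. Against amygdala 145 passed (1.11%), 123 with a more positive difference in cortex and 22 with a more negative one. With the animal as a replicate block 0 passed in edgeR, with 2259 at an unadjusted p under 0.05, and 131 in limma-voom. With length and GC trends removed and no block, 2 passed in edgeR.

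Vgf had the smallest p of these, with a log2 fold change of 0.31 in cortex and -0.40 in amygdala (adjusted edgeR p of the difference = 0.0178 without and 0.0873 with the block). Tiparp stood at -0.42 in cortex and 0.35 in amygdala, and Egr4, an activity-dependent zinc-finger factor, at 0.31 and -0.52. Vgf and Tiparp are also among the genes named above for their small p in cortex.

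In hypothalamus 2939 genes passed the same test between states, and 564 of them (19.2%) stood at an unadjusted p under 0.05 in cortex of the same animals, beside 9.8% of all genes. The median standard error of the log2 fold change was 0.10 in cortex and 0.08 in hypothalamus, and the median size of the log2 fold change 0.10 and 0.14. Animal numbers had 3 digits in 2 virgins and 7 primiparous females, and 4 digits in 6 virgins and 1 primiparous female. With this series as a covariate 0 genes passed and 746 (5.73%) stood at an unadjusted p under 0.05. Among 3-digit animals alone 0 passed and 89 stood there. Among 4-digit animals alone the primiparous group is 1 library, 4493, which is among the 3 high in the unnamed row. The 6 that passed there, with that library assumed to vary like the virgins, were the unnamed row and the 5 genes that moved with it, so they describe this library and do not test the state.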

How the data were processed

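Single-end, poly(A)-selected RNA-seq libraries of the cortex were compared between states in 16 animals. Per the labels and the study's methods, reads were aligned with HISAT2 to mm10 and assigned to genes with featureCounts, which keeps uniquely mapping reads, and the authors deposited raw counts per gene for 27179 genes. They also deposited log2 values, which followed log2 of counts divided by size factors plus 4 (largest difference 5e-05) and were used only as an alternative. Symbols were taken by gene identifier from RefSeq GRCm38.p6, since 46 symbols of the deposited log2 table named another gene, and 117 tested genes had none.

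The 13016 genes that reached 5 CPM in 8 or more of the 77 libraries were tested, the filter of the study. States were compared with edgeR 4.0.16 (TMM, robust quasi-likelihood F-test, Benjamini-Hochberg adjustment) in R 4.3.3. Alternatives used limma 3.58.1, DESeq2 1.42.0 and sva 3.50.0, and the tests were checked on simulated data. The length and GC correction was an offset from splines with 4 degrees of freedom each, for the 12632 genes (97%) with both values. Levels are log2(CPM + 4), and slopes used log2(CPM + 0.5). A gene that follows a library measure was tested in edgeR with the state as a covariate. The genes of a measure's own list were left out of its counts but kept in the adjustment.

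The members, gene lists and tests were chosen with earlier results of these data known. The rule for named genes covered the 12 genes with the smallest p in each direction, the 20 with the largest within-state SD, the most variable member and the member of smallest p in each list, genes called by an alternative fit, and the marker genes used to check the label, and not every gene it covers is printed. Other list members and Slc17a5 were chosen after their values were seen. The regions of an animal were paired by animal number. Cortex deviations had a median correlation of 0.0479 with the hypothalamus, 0.104 with the hippocampus and 0.058 with the amygdala of the same animal. With other animals the medians were 0.00233, -0.0078 and -0.0084. The best match had the same number in 2 of 16, 1 of 15 and 1 of 15 pairs, so these correlations do not establish the pairing. Cortex libraries are separate animals, 1 per animal. Total counts per library set the precision, and no molecular identifiers were used. Results of a few genes are not reported here.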

Additional observations from a re-analysis of the deposited data

Results flagged for a closer look

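In 156 groups of 8 values, 15 held a sample whose gap to its neighbour, as a share of the group's range, was above Dixon's 95% critical value. Chance gives about 1 in 20 for independent groups of normal values. Here Prl and Gh were chosen after their values were seen, and several measures of 1 library are related. The count of 15 can therefore not be set against that rate. Among primiparous females, 427 stood apart in the length slope (-1.06, next -0.04), the cytosolic ribosomal protein level (7.75, next 7.12), the oxidative phosphorylation level (7.004, next 6.38), the heat shock level (6.99, next 6.81) and the hypothalamic neuropeptide level (2.45, next 2.25). Of the 8 hypothalamic neuropeptide genes, 6 averaged below 1 CPM in cortex. The most variable, Pomc, was at 15.6 CPM in primiparous 427 (next 4.88) and is also part of the pituitary hormone level above. Primiparous 427 also held 75.5 CPM of Prl (next 15.6) and 38.8 CPM of Gh (next 4.71). Among virgins, 4490 held 26.7 CPM of Prl (next 0.586) and 9.10 CPM of Gh (next 0.117).

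Virgin 4489 was high for Sdf2l1 (15.7 CPM, next 12.9), virgin 4486 for Ddx54 (69.5 CPM, next 62.2), and virgin 405 was low for Yes1 (12.8 CPM, next 16.3). Primiparous 418 was high for Myh7b (26.2 CPM, next 22.0) and in the hippocampal subfield level (2.94, next 2.76), and primiparous 414 had the most counted reads (30340000 rounded, next 20570000).

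The state difference in cortex departed from that in amygdala for 145 genes in edgeR without the animal as a replicate block and for 0 with it, and for 131 in limma-voom with it.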

How the results depend on the processing

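Between states, 0 genes passed under each test, scaling and filter tried and without each library in turn, except in 1 edgeR fit of all 10 groups (6 genes), with the GC and length slopes as covariates (1 gene, Phyhd1, log2 fold change -0.46) and among 4-digit animals alone (6 genes, on 1 primiparous library, 4493). The 6 genes of the fit of all 10 groups lay high in the 3 primiparous libraries highest in the unnamed row. The 1276 genes at an unadjusted p under 0.05 became 2657 with sample quality weights, 2335 in the fit of all groups, 746 with the animal number series, 2039 with olfactory bulb and striatal levels, and 648 with length and GC trends removed. Chosen after seeing the data, leaving out the 3 libraries lowest in olfactory bulb level gave 2941, leaving out the 3 highest in the unnamed row gave 339, and 3-digit and 4-digit animals alone gave 89 and 2239. Leaving out 1 library gave 798 (without primiparous 4493) to 2772 (without primiparous 413), with 806 without virgin 4491. The cause of these shifts was not tested. Phyhd1 reversed to 0.079 among 4-digit animals, which is the value of 1 primiparous library (4493) against 6 virgins. The sizes of the named fold changes also moved. Over 35 alternatives the log2 fold change ran from -0.691 to -0.135 for Scn3a, 0.105 to 0.427 for Vgf and 0.170 to 0.735 for Rtn4rl2.

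With the animal as a replicate block in edgeR, the 145 genes of cortex minus amygdala became 0, and the 2 found with the length and GC correction also became 0. In limma-voom with the block 131 passed. Against hypothalamus and hippocampus 0 passed with and without the block. The first component's share of 44.7% was 42.3% at a pseudocount of 1, 36.4% with unit variance, 52.3% over the 1000 most variable genes, 41.1% in the deposited log2 values, and 39.4% (without primiparous 427) to 49.0% (without primiparous 418) when 1 library was left out. Genes moving with the olfactory bulb level numbered 148 to 322 with 1 library left out, 821 with length and GC trends removed and 17 without the 3 lowest libraries. With 1 library left out, the striatal level had 1 to 4, the myelin and immediate early levels 0 to 1 each, the GC slope 2074 to 5180, the length slope 1906 (without primiparous 427) to 6354, the level of the unnamed row 5 to 596 (without primiparous 418), and the pituitary hormone level 0 (without primiparous 427) to 3373 (without virgin 4490), the last 3 chosen after seeing the data. With length and GC trends removed the pituitary hormone level had 630. The range of the olfactory bulb level, 2.98, was 4.04 at a pseudocount of 1 and 4.70 in the deposited values, and that of the striatal level, 0.52, was 0.71 and 0.92. At lower depth, genes of a few CPM have the least precise values.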
